A study of Homo sapiens with 6 samples.

Results

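SREBF2, INSIG1, HMGCS1, IDI1, FDFT1, SQLE and DHCR7 are 7 genes of cholesterol synthesis and its control by SREBP2. They were taken by name from a table of raw gene counts and are 7 of the 60709 genes with values in it, and all 7 had at least 10 counts in every library. The counts came from SH-SY5Y, an established human neuroblastoma line that was subcloned from another line, so all samples share 1 clonal origin. The study's labels describe 3 control samples, whose wells received 10 uL of DMSO, and 3 samples given an Nrf2-peptide-linked fumarate. For the latter, the labels give 2 mg of peptide per 600 uL of water, with 200 uL added to a well beside 10 uL of DMSO. Both groups were grown to 80% confluence in 2 mL of serum-containing medium and were lysed after 5 h.

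The column headings carry the label numbers of the 3 control samples, 4, 5 and 6, and of no peptide-treated sample, since those are numbered 13, 14 and 15. Values of peptide-treated samples are therefore not used here, and the groups are not compared. The name control rests on the numbers in the headings. If the columns had been numbered afresh, the libraries described here could be the treated ones. Nothing in the labels says whether the replicates came from separate cultures, so the SD measures the spread between samples, which may be technical.

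SREBP2, the product of SREBF2, is made as a precursor held in the membrane of the endoplasmic reticulum. The escort protein SCAP carries it to the Golgi when membrane cholesterol is low, where proteases release the part that enters the nucleus and turns on genes of cholesterol synthesis and uptake. When sterols are plentiful, INSIG1 and INSIG2 hold SCAP back, and INSIG1 is itself a target of SREBP, which closes a feedback loop. In neurons and neuron-like cells cholesterol is needed for membranes, growing processes and synapses.

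SREBP binds sterol regulatory elements in promoters, usually close to sites of the factors NF-Y and Sp1. Promoter windows of 300 bases, from 250 before to 50 after an annotated start, were found for SREBF2, INSIG1, HMGCS1, IDI1 and DHCR7 in RefSeq (GRCh38.p14). The letters TCACNCCAC, a form of the element, stood on either strand in 1.39% of the 27305 genes that have a window, and among the 5 members in SREBF2 alone. They stood in 0 of the 14 other synthesis enzymes that had a window. The shorter letters CACNCCAC, which lie inside the longer ones, stood in 7.05% of all these genes, in 3 of the 5 members, SREBF2, INSIG1 and IDI1, and in 1 of the 14 other enzymes, SC5D. A gene counts here when any of its windows holds the letters, which favours genes with more windows. The 5 members had 9 windows, and all 27305 genes had 35116. By window, CACNCCAC stood in 3 of the members' 9, against 5.87% of all windows. These 3 windows are shown because they hold such letters. Capitals mark CACNCCAC, TCACNCCAC and the NF-Y letters CCAAT, or the reverse complement of any of them.
SREBF2, chr22:41832855-41833154, plus strand: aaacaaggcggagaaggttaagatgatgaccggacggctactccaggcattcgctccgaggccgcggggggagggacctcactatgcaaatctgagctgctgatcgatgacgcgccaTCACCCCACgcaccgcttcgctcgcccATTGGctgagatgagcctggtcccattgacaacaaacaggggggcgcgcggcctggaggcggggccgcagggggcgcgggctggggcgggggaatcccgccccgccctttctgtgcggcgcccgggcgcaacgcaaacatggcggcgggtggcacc
INSIG1, chr7:155297628-155297927, plus strand: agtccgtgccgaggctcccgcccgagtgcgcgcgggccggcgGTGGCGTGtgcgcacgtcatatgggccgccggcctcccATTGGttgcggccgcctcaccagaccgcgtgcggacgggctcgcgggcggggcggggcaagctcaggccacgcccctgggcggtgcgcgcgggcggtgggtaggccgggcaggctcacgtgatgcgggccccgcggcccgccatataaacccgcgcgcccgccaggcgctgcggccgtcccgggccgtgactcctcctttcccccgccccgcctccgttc
IDI1, chr10:1048837-1049136, minus strand: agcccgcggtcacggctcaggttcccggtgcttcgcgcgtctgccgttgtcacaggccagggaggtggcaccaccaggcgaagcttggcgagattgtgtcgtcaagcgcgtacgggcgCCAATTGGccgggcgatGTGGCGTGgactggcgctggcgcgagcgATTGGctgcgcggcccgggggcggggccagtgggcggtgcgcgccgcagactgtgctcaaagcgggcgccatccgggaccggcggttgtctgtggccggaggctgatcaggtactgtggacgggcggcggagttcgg

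In the SREBF2 window the run TCACCCCAC begins 133 bases before the start site, and a reversed CCAAT follows 106 bases before it. INSIG1 holds the reversed run GTGGCGTG 208 bases before its start and a reversed CCAAT 170 bases before it. IDI1 holds the same reversed run 115 bases before its start, between a pair of overlapping CCAAT letters in both directions and a further reversed one 87 bases before the start. CCAAT stood in at least 1 window of each of the 5 members, against 39.7% of all genes with a window. By window, CCAAT stood in 6 of the members' 9, against 34.6% of all windows. It also stood in windows of 11 of the 14 other synthesis enzymes. The Sp1 letters GGGCGG were found in 5 of 5 members and in 12 of those 14 enzymes, against 48.3% of all genes. By window, GGGCGG stood in 8 of the members' 9, against 45.0% of all windows. The windows were not matched for base composition, the members' windows ranged from 57.0 to 78.3% GC, and a match of letters is a description of the sequence only.

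Totals were 8887854 to 11397407 counts per library. The 7 genes together took 4517 counts in control replicate 1, 4786 in replicate 2 and 3686 in replicate 3, which was 423, 420 and 415 of every 1000000 counts. Their summed share was thus close to equal in the 3 libraries. Of the 10 neuroblastoma markers, 9 passed the minimum of 10 counts in every library, led by HAND2, while TH, the enzyme that begins catecholamine synthesis, had 0 counts in each. Of 6 markers of other cell types, COL3A1, COL1A1 and EPCAM passed, and PTPRC, PECAM1 and ALB had at most 2 counts in any library. Levels are given as CPM, counts per 1000000 of the library total scaled by the TMM method of edgeR. They are also given per length as TPM, in which counts are divided by the length of the longest transcript and rescaled to 1000000 per library. A level in a bulk culture does not separate RNA per cell from the share of cells that express the gene.

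**Figure D1:**
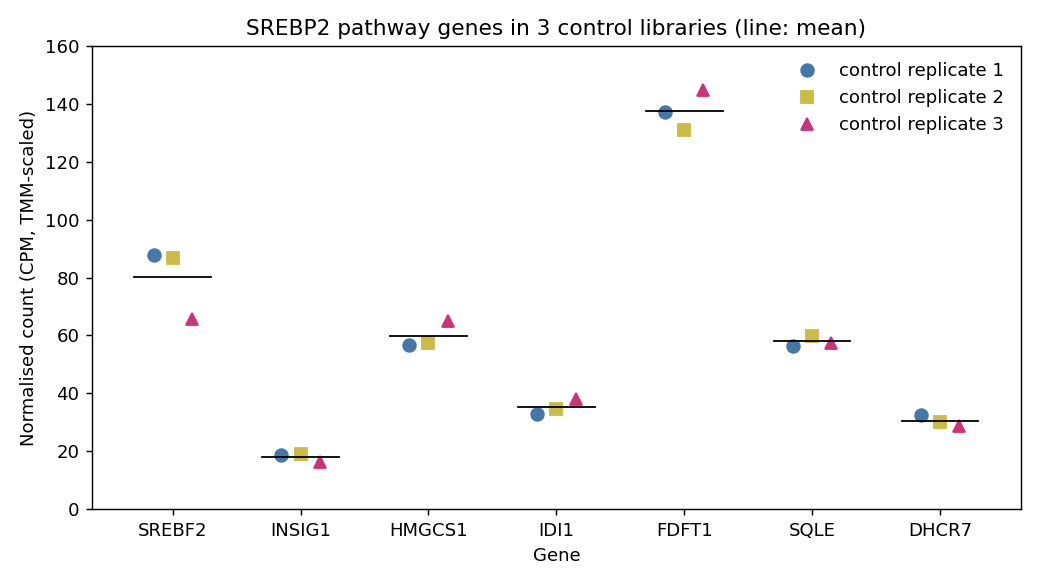
Normalised counts (vertical axis, CPM) of the 7 members in control replicates 1, 2 and 3 (points), with the mean as a line. FDFT1 is highest at 131 to 145 CPM, INSIG1 lowest at 16.3 to 19.0 CPM, and SREBF2 is the gene whose replicate 3 lies farthest from the others.

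SREBF2 (ENSG00000198911.12), the gene for SREBP2 itself, had levels of 87.8, 86.6 and 65.7 CPM in replicates 1, 2 and 3, from 939, 990 and 582 counts. Replicates 1 and 2 were nearly equal and replicate 3 was lower. The mean was 80.1 ± 12.4 CPM (SD, n = 3), a coefficient of variation of 15.5%, the largest among the members, against a counting error of 3.18 to 4.15% per library. Per length SREBF2 had 44.8, 44.5 and 31.9 TPM. Its antisense neighbour SREBF2-AS1, which shares 280 exon bases with it, had at most 2 counts in a library. The microRNA gene MIR33A, which lies within SREBF2, was listed with 0 counts in each library of this messenger RNA preparation.

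INSIG1 (ENSG00000186480.13), the sterol-sensing retention protein of the endoplasmic reticulum, was the lowest member. It had 18.9, 19.0 and 16.3 CPM in replicates 1, 2 and 3, on 202, 217 and 144 counts. Its mean was 18.0 ± 1.55 CPM (n = 3), and its coefficient of variation of 8.57% was close to the counting error of 6.79 to 8.33% per library. The neighbouring INSIG1-DT had 7 to 12 counts per library.

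HMGCS1 (ENSG00000112972.15), which makes HMG-CoA from acetyl-CoA units, had 56.6, 57.4 and 65.2 CPM in replicates 1, 2 and 3, with a mean of 59.7 ± 4.73 CPM. IDI1 (ENSG00000067064.12), which interconverts the C-5 isoprenoid building blocks, had 32.9, 34.6 and 38.2 CPM, with a mean of 35.2 ± 2.69 CPM. Both genes were highest in replicate 3, the library in which SREBF2 and INSIG1 were lowest. Other enzymes of the same stretch of the pathway were mixed. ACAT2, MVK, PMVK, MVD and FDPS were lower in replicate 3 than in the mean of the others, by log2 differences from -0.30 to -0.08, and GGPS1, on a side branch, was higher by 0.70. The coefficients of variation of HMGCS1 and IDI1, 7.93 and 7.63%, exceeded counting errors of at most 4.16 and 5.44% per library. Genes on the opposite strand overlap 15.0% of the exon bases of HMGCS1 and 14.8% of those of IDI1. The opposing genes had 0 counts for HMGCS1 and 5 to 11 counts per library for IDI1 (IDI2-AS1). The IDI1 pseudogenes IDI1P1, IDI1P2 and IDI1P3 were listed with 0 counts in each library.

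FDFT1 (ENSG00000079459.13), squalene synthase, commits farnesyl diphosphate to sterols. It had 137, 131 and 145 CPM in the 3 libraries, with a mean of 138 ± 6.80 CPM, the highest of the 7. SQLE (ENSG00000104549.12), squalene epoxidase, performs the first oxygen-dependent step of the pathway. Its values were 56.4, 59.9 and 57.5 CPM, and the mean of 57.9 ± 1.82 CPM had the smallest coefficient of variation among the members, 3.15%, below its counting error of 3.82 to 4.43% per library. DHCR7 (ENSG00000172893.16), which reduces 7-dehydrocholesterol in the last step of 1 branch to cholesterol, had 32.6, 30.2 and 28.8 CPM, with a mean of 30.5 ± 1.94 CPM. DHCR7 was lowest in replicate 3, but its coefficient of variation of 6.36% was close to its counting error of 5.35 to 6.26% per library.

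Per length the order of the members was FDFT1 with 148 ± 3.47 TPM (SD, n = 3), SQLE with 56.1 ± 2.83 TPM, HMGCS1 with 48.8 ± 2.41 TPM, SREBF2 with 40.4 ± 7.32 TPM, DHCR7 with 32.9 ± 2.83 TPM, IDI1 with 29.9 ± 1.50 TPM and INSIG1 with 17.2 ± 1.96 TPM. The ranges over libraries did not overlap between FDFT1 and SQLE, SQLE and HMGCS1, HMGCS1 and SREBF2, or IDI1 and INSIG1. SREBF2 and DHCR7 overlapped, although SREBF2 was higher within each of the 3 libraries. DHCR7 and IDI1 overlapped too, and DHCR7 was higher in 2 of 3. The order depends on the length used. With the median length over a gene's annotated transcripts, many of which are short, SREBF2 moved to the first place with 98.2 TPM ahead of FDFT1 with 88.7 TPM. With the length of all exons joined, FDFT1 stayed first with 102 TPM and IDI1 passed DHCR7, 31.2 against 28.3 TPM. INSIG1 was last with each of the 3 lengths. The members' median was 40.4 TPM, against 24.0 TPM over the 13920 genes that reached 10 counts in each library.

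Among these genes, FDFT1 stood at the 91.8th percentile per length, SQLE at the 73.9th, HMGCS1 at the 70.2nd, SREBF2 at the 64.8th, DHCR7 at the 58.7th, IDI1 at the 55.9th and INSIG1 at the 41.0th. The members thus reached from below the middle of the detected genes to near the top.

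**Figure D2:**
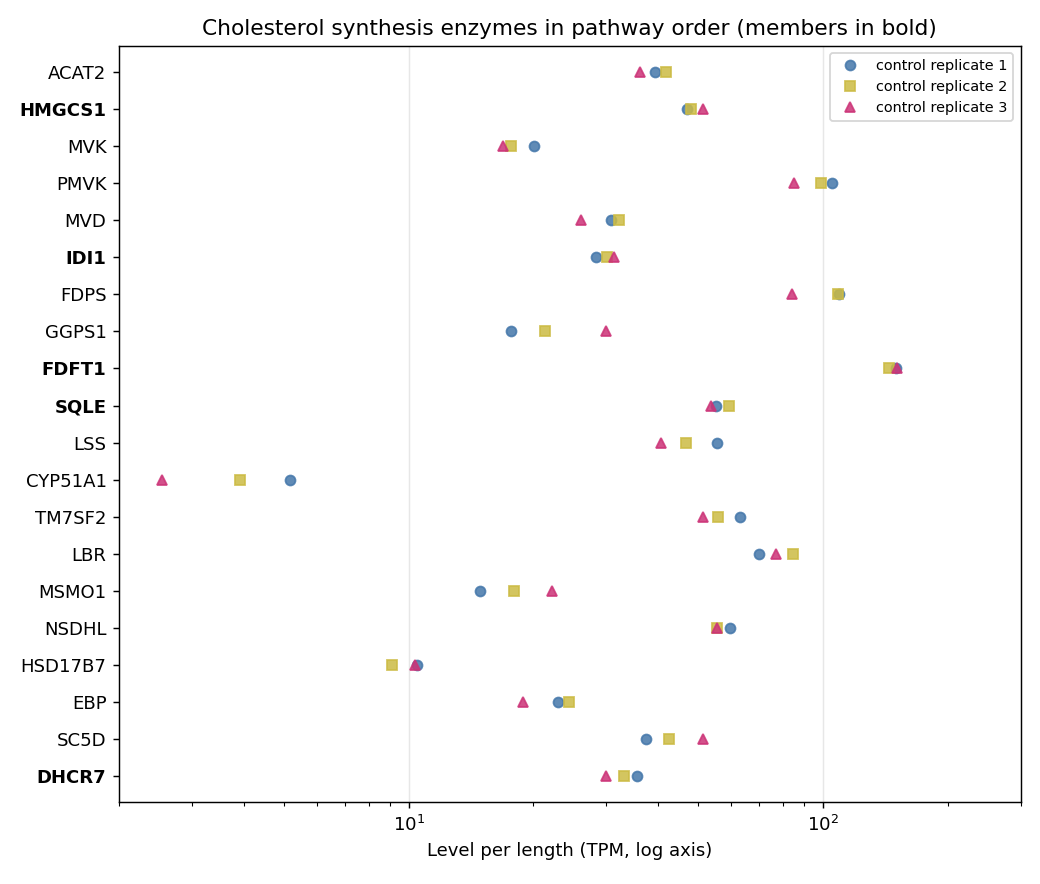
Level per length (horizontal log axis, TPM) of 20 synthesis enzymes from ACAT2 at the start to DHCR7 at the end, with 1 point per control library. FDFT1 lies at 144 to 151 TPM and CYP51A1 at 2.53 to 5.16 TPM, and the members, in bold, are spread over the order.

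The 5 member enzymes were set among 15 other enzymes of the pathway, all of which had at least 10 counts in every library. FDFT1 was the highest of these 20 per length. FDPS, which makes the farnesyl diphosphate that FDFT1 uses, followed with 101 ± 14.3 TPM, and the ranges of FDFT1 and FDPS did not overlap. With joined exons PMVK came first with 130 TPM and FDFT1 second, and with the median transcript length LBR came first with 137 TPM and FDFT1 took rank 2. With the longest transcript as the length, SQLE, NSDHL and TM7SF2 lay side by side at 56.1, 56.9 and 56.6 TPM, with overlapping ranges. With the median transcript length they were apart, at 76.4, 22.9 and 50.9 TPM. Joined exons gave them 51.9, 74.0 and 46.8 TPM. Per longest transcript HMGCS1 overlapped with LSS at 47.7 ± 7.58 TPM, and IDI1 overlapped with MVD at 29.7 ± 3.19 TPM. The ranges of HMGCS1 and LSS did not overlap with the median transcript length, nor did those of IDI1 and MVD with joined exons.

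CYP51A1, the lanosterol demethylase that acts after SQLE and LSS, was the lowest of the 20 with each of the 3 lengths. It had 61, 49 and 26 counts in replicates 1, 2 and 3, or 3.87 ± 1.31 TPM. In GENCODE release 29, 79.4% of its exon bases are shared with other genes on the same strand, of which AC000120.2 covers 2844 bases and was listed with 0 counts in each library. How the counting treated reads in shared exons is not given in the sources used here, and its part in the low value was not tested. None of the 7 members shares exon bases with another gene on its own strand in that release. GGPS1, which shares 37.3% of its exon bases with TBCE on the same strand, had 23.0 ± 6.31 TPM. FDPS and HSD17B7 are known to have pseudogenes, and whether reads were split between them was not tested.

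**Figure D3:**
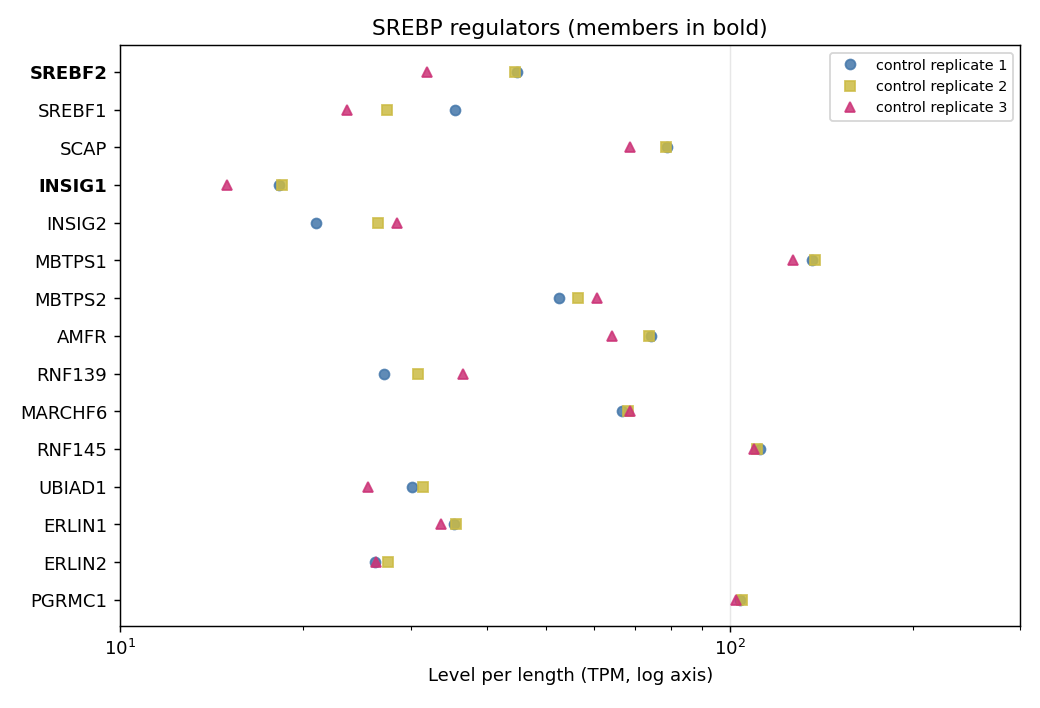
Level per length (horizontal log axis, TPM) of SREBF2, INSIG1 and 13 other genes that process SREBP or degrade sterol-regulated proteins, with 1 point per control library. With the longest transcript as the length, INSIG1 is the lowest at 15.0 to 18.5 TPM and MBTPS1 the highest at 127 to 138 TPM.

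SREBF2 exceeded SREBF1, the gene for the fatty acid regulator SREBP1, in every library. SREBF1 had 35.5, 27.4 and 23.6 TPM in replicates 1, 2 and 3. It shares 6.92% of its exon bases with RAI1 on the opposite strand. RAI1 had 1637, 1647 and 1040 counts, and its part in the SREBF1 values was not tested. The ratio of SREBF2 to SREBF1 per length was 1.26, 1.62 and 1.35, with a mean of 1.41 ± 0.188 (SD, n = 3). The ratio was lowest in replicate 1, where SREBF1 was highest, and highest in replicate 2. It was above 1 in each library with the other lengths too, with a lowest value of 1.35 for the median transcript length and 1.64 for joined exons.

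INSIG1 was below its paralog INSIG2 in every library. INSIG2, which also holds back SCAP but is not induced by SREBP2 in the same way, had 23.0, 28.9 and 32.7 CPM, or 25.3 ± 3.89 TPM. The ratio of INSIG1 to INSIG2 was 0.525 in replicate 3, under the 0.869 and 0.696 of replicates 1 and 2, with a mean of 0.697 ± 0.172. INSIG1 has 46.0% GC and INSIG2 35.4%. After removal of the GC trend between libraries, described below, the ratios were 0.780, 0.690 and 0.592, and the SD went to 0.0943.

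SCAP, the escort protein, had 78.8, 78.5 and 68.8 TPM, and it exceeded SREBF2 and INSIG1 in each library. MBTPS1, the first of the proteases that cut SREBP in the Golgi, was the highest of the 13 other regulators with 134 ± 5.76 TPM, and INSIG2 was the lowest. In CPM another of the 13 was above MBTPS1, with 226 against 202 CPM. The longest transcript of MBTPS1 has 4338 bases and its joined exons have 10238. The order of the regulators was not computed with the other lengths. The median of the 13 was 56.5 TPM. INSIG1, with at most 18.5 TPM, lay under the range of each of these 13 genes.

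All 9 genes taken for cholesterol uptake, transport and storage passed the minimum of 10 counts in each library. VLDLR, a lipoprotein receptor, was the lowest with 101, 104 and 90 counts, or 2.99 ± 0.0826 TPM, and it was below all 7 members in each library. NPC2, a lysosomal cholesterol carrier, was the highest of the list per longest transcript with 97.6 ± 8.09 TPM. In CPM it was not the highest, with 49.0 CPM against 84.3 CPM for the gene that was. The order of this list was not computed with the other lengths. The median of this list was 26.1 TPM, against 40.4 TPM for the members.

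Of 10 genes for cholesterol efflux and oxysterols, 6 passed the minimum. NR1H2, an oxysterol receptor, was the highest with 66.6 ± 2.60 TPM, and CH25H had 0 counts in each library. Per longest transcript NR1H2 was above SREBF2 in each library. In CPM it was below SREBF2 in each, with 54.7 to 55.7 against 65.7 to 87.8 CPM. At the depth of replicate 3, a gene with no count could still reach 3 counts, or 0.339 CPM. The list's median was 2.93 TPM. All 9 genes of fatty acid synthesis, INSIG1 included, passed. ACLY, which supplies cytosolic acetyl-CoA to both pathways, was the highest with 307 ± 22.2 TPM, and INSIG1 was the lowest. The list's median of 56.0 TPM lay above that of the members.

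**Figure D4:**
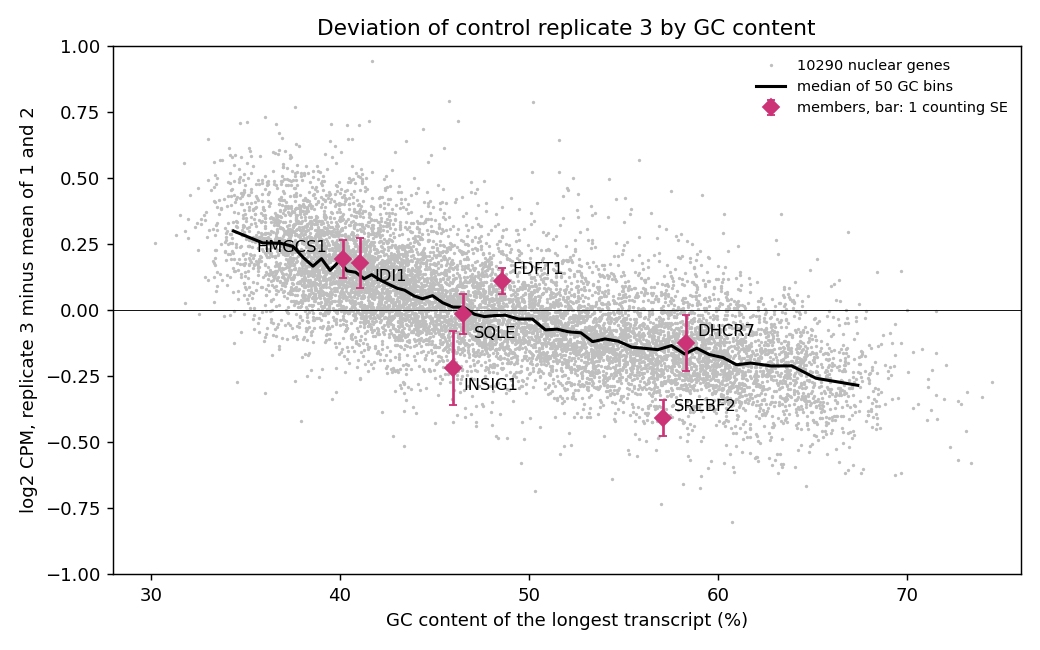
Difference in log2 CPM between control replicate 3 and the mean of replicates 1 and 2 (vertical axis) against the GC content of the longest transcript (horizontal axis, %) for 10290 nuclear genes (grey), of which 4 lie outside the axes. The line is the median of 50 GC bins, diamonds are the 7 members with 1 counting standard error, and SREBF2 lies farthest below the line.

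The differences among the members between libraries ran partly along the GC content of their transcripts, as they did over all genes. HMGCS1 (40.2% GC) and IDI1 (41.1% GC) were higher in replicate 3 than in the mean of replicates 1 and 2, by 0.19 and 0.18 on the log2 scale. Genes in the same GC bins had medians of 0.19 and 0.12. DHCR7 (58.3% GC) differed by -0.12, where its bin had a median of -0.17. SQLE (46.5% GC) differed by -0.02, with a bin median of 0.01. With the GC trend removed, these 4 genes lay between the 42.1st and the 64.3rd percentile of the 10290 nuclear genes in this difference. The coefficient of variation of HMGCS1 went from 7.93 to 2.27%, that of IDI1 from 7.63 to 1.99% and that of DHCR7 from 6.36 to 2.76%. The values after removal lie below these genes' counting errors, which were at least 3.90, 5.03 and 5.35% per library. Such low values may therefore be partly chance and do not measure the spread between samples. The removal did not lower the coefficient of every member. It rose from 3.15 to 3.33% for SQLE, from 8.57 to 8.86% for INSIG1 and from 4.94 to 5.63% for FDFT1. That of SREBF2 fell from 15.5 to 10.3%.

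SREBF2, INSIG1 and FDFT1 lay farther from the median of their GC bins, and their counting standard errors cover the sampling of reads only, not the spread between samples. SREBF2 (57.1% GC) differed by -0.41, with a counting standard error of 0.07, while its GC bin had a median of -0.15. Its difference lay at the 1.90th percentile of the 10290 nuclear genes, and at the 2.94th percentile once the trend was removed, with a value of -0.26. INSIG1 (46.0% GC) differed by -0.22, with a counting standard error of 0.14, against a bin median of 0.01, and had -0.23 after removal. It lay at the 14.5th percentile of those genes, and at the 4.66th once the trend was removed. FDFT1 (48.6% GC) was higher in replicate 3 by 0.11, with a counting standard error of 0.05, against a bin median of -0.02, and had 0.13 after removal. Its percentile was the 70.6th, and the 82.6th once the trend was removed, so FDFT1 was not among the extremes. Replicate 3 also had the largest share of mitochondrially encoded counts, 6.25% against 4.11 and 3.83%, and its part in these differences was not tested. That share also lowers every TPM value of a nuclear gene in replicate 3 relative to CPM.

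As a set the members had no common shift. Replicate 3 was higher for 3 of them and lower for 4, with a median difference of -0.02, against 52.0% of the 10290 nuclear genes that were lower and a median of -0.01. The log2 difference of replicate 2 from replicate 1 was between -0.11 and 0.09 for the 7 members. The members' median coefficient of variation was 7.63%, against 7.30% over those nuclear genes.

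Ratios between steps of the pathway set the members against each other within each library. The ratio of HMGCS1 to IDI1, which have nearly the same GC content, was 1.65, 1.60 and 1.64 per length in replicates 1, 2 and 3, with a mean of 1.63 ± 0.0295 (SD, n = 3). The ratio of FDFT1 to SQLE was 2.71, 2.43 and 2.80, with a mean of 2.65 ± 0.191. The ratio of SQLE to DHCR7, which differ by 11.8 points of GC, was 1.56, 1.79 and 1.80, with a mean of 1.71 ± 0.137. HMGCS1 and IDI1 thus had the smallest spread of the 5 pairs in these 3 libraries. Their counting errors per library were 3.90 to 4.16% for HMGCS1 and 5.03 to 5.44% for IDI1. An SD of 0.0295 on a mean of 1.63 is smaller than these errors, so the closeness may be partly chance. The size of each ratio depends on the lengths used, and with the median transcript length these 3 means were 2.55, 1.16 and 2.32. With the GC trend removed, the SDs of these 3 ratios were 0.0341, 0.209 and 0.104. That of SREBF2 to SREBF1 was 0.196, against 0.188 before.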

How the data were processed

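The table deposited by the authors holds raw counts per Ensembl gene, per the file headers. The submitters' processing notes name fastp 0.21.1, STAR 2.7.7a, featureCounts and GRCh38. The annotation release, the strand setting and the treatment of shared reads are not given in the sources used here. Columns were matched to samples by number, and 3 columns that match no sample were not used. Of 60710 genes, 1 had no value in the columns used. Totals were 8887854 to 11397407 counts, and counting errors cover sampling of reads only.

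Counts were scaled to CPM with TMM factors (edgeR 4.0.16, R 4.3.3). TPM used the longest transcript per gene of GENCODE release 29. It covered 99.9% of the counts, and the authors' release may be another. The GC trend was the median deviation per library in 50 bins over 10290 nuclear genes averaging 100 counts or more, and its removal was tested on simulated data. Other steps used Python 3.11.15, numpy 2.4.6 and pandas 2.3.3. With 1 group matched, no test was run, and the planned edgeR comparison was not made. The 7 members and the gene lists were chosen with earlier results of these data known. All members were named. Of each other list, the highest and the lowest gene per length were named, together with SREBF1, INSIG2 and SCAP. Some pathway genes are not reported here. ACAT2, MVK, SC5D, PMVK, LBR, LSS, MVD, NSDHL, TM7SF2 and GGPS1, neighbours or genes with shared exons, were named after their values were seen. So was HSD17B7, which has known pseudogenes. All 6 markers of other cell types were named. No gene of like pattern was sought, since 3 libraries of 1 group define none.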

Additional observations from a re-analysis of the deposited data

How the results depend on the processing

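No paired analysis was possible because no column matched a peptide-treated sample. The planned DESeq2 fit, the filter on low counts and the replicate block applied to the comparison with the peptide and were not run. The members' median level, averaged over the 3 libraries, was 57.1 CPM, and 59.9 CPM with mitochondrial genes left out, since a smaller total raises every other gene. The median per length was 40.4 TPM, and 76.4 TPM with the median transcript length. Joined exons, an alternative chosen after seeing the data, gave 41.1 TPM. The members' median difference of replicate 3, -0.02 on the log2 scale, turned to 0.029 with the GC trend removed, and that of DHCR7 turned from -0.12 to 0.041. Leaving out each replicate in turn gave 56.9 to 57.4 CPM and 38.2 to 44.6 TPM. RLE factors or library size alone left TPM and the ratios unchanged by construction. Of the 62 pathway genes, 58 had at least 10 counts in every library and 61 at least 1. Depth limits INSIG1 most among the members, at 144 to 217 counts.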
